A study of Mus musculus with 12 samples.

Results

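Plasminogen activation and tissue factor genes were followed in primary mouse skin fibroblasts. The 9 genes were Plau, Plat, Plaur, Serpine2, Serpinb2, Serpinf1, F3, Thbd and Tfpi. They were chosen by name, with earlier results of these data known, and each was present once in the count table of 21556 genes. The fibroblasts came from abdominal skin of WT mice (strain C57BL/6) or of Nox4 KO mice (strain B6.129-Nox4tm1Kkr/J), in which Nox4, the gene of an NADPH oxidase that makes hydrogen peroxide, is disrupted throughout the animal and not in fibroblasts alone. All cultures were starved for 24 h. They were then left unstimulated (control) or received TGF-β2 at 10 ng/ml for 24 h, which gave WT control, WT TGF-β2, Nox4 KO control and Nox4 KO TGF-β2 groups with 3 libraries each, described by the submitters as biological replicates. The question was how TGF-β2 changed these mRNAs and whether Nox4 deficiency altered their level or their response.

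Fibrinolysis is started by plasminogen activators, serine proteases that cleave plasminogen into plasmin, which digests fibrin and, directly or through other proteases, matrix proteins. Urokinase (Plau) works largely at the cell surface, bound to its receptor (Plaur), whereas tissue-type activator (Plat) works best on fibrin, and both are held back by serpins, inhibitors that trap their protease in a covalent complex. Coagulation is started by tissue factor (F3), a membrane protein that binds factor VII and that fibroblasts around vessels and in skin carry, while thrombomodulin (Thbd) turns thrombin towards activating protein C and tissue factor pathway inhibitor (Tfpi) blocks the tissue factor complex. In wound repair both systems act together, since fibrin is first deposited and later removed.

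The libraries held 35118344 to 43796260 counts, and of the 9 genes Serpinb2 had the fewest reads, with 50 to 74 per control library and 128 to 724 after TGF-β2. Fibroblast identity was clear, with 9 of 9 fibroblast markers expressed and a summed level of 5464 to 8035 RPKM (reads per kilobase of exon divided by the depth of the library in 1e+06 counts). Within each genotype the fibroblast sum was lower in every TGF-β2 library than in every control library. The 9 endothelial markers summed to 3.13 to 6.22 RPKM. In Nox4 KO their sum was 4.57 to 6.22 RPKM in control and 3.88 to 4.45 RPKM with TGF-β2, without overlap. The WT ranges overlapped, at 3.43 to 5.70 and 3.13 to 4.94 RPKM. In both genotypes each TGF-β2 library was below the control library of the same number. The highest of these markers were Kdr (1.48 to 4.62 RPKM), Egfl7 (at most 2.30) and Tek (at most 1.04), and Pecam1 did not exceed 0.133 RPKM. Markers of keratinocytes summed to at most 0.943 RPKM, mast cell markers to at most 0.036 RPKM, and pericyte markers to 48.4 to 138 RPKM, nearly all of it Mcam. The pericyte sum was higher in every TGF-β2 library than in every control library of its genotype, at 48.4 to 79.7 against 88.6 to 119 RPKM in WT and at 62.5 to 71.7 against 79.3 to 138 RPKM in Nox4 KO, with Nox4 KO TGF-β2 library 3 the highest. The 11 myeloid markers summed to 16.9 to 149 RPKM, with a range of 30.3 to 149 in WT control, 27.1 to 107 in WT TGF-β2, and Nox4 KO ranges of 24.1 to 115 in control and 16.9 to 85.3 with TGF-β2. These ranges overlapped between all groups, but the TGF-β2 library was below the control library of the same number for all 6 numbers. In bulk RNA, fewer cells of a type and less RNA per cell cannot be told apart. WT TGF-β2 library 2 stood apart, because its deviations from the group mean went with gene length (r = -0.63 across genes, against 0.38 and 0.47 in the other WT TGF-β2 libraries and values between -0.12 and 0.09 in all others), so changes of call among the 9 genes without it are given as well.

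Nox4 itself was measured first. Its level was 1.74 ± 0.602 RPKM (SD, n = 3) in WT control and 11.9 ± 3.97 in WT TGF-β2, while Nox4 KO cells had 0.896 ± 0.435 RPKM in control and 5.26 ± 1.38 RPKM with TGF-β2. Each stimulated Nox4 KO library, at 4.39 to 6.85 RPKM, was below each stimulated WT library, at 8.56 to 16.3 RPKM, while the control ranges overlapped. Neither difference passed the adjustment over all genes (adjusted p = 0.828 in control and 0.838 after TGF-β2, edgeR), and reads outside a disrupted stretch of a gene cannot check the deletion.

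The promoters of the genes are shown before their values. RefSeq start sites on GRCm38.p6 were available for 6 of the 9 genes. AP-1, the Jun and Fos family of transcription factors, recognises the letters TGANTCA, and these letters were present within the 250 bases before the start of Serpinb2, Plaur and F3. They occurred in 6.75% of 32851 such stretches of the genome on either strand. The sequences run 5′ to 3′ on the gene's own strand, which is the plus strand for all 3 genes, with AP-1 letters and the TATA box letters TATAAA in capitals. They are chr1:107511173-107511422 for Serpinb2, chr7:24462233-24462482 for Plaur and chr3:121723287-121723536 for F3.
Serpinb2: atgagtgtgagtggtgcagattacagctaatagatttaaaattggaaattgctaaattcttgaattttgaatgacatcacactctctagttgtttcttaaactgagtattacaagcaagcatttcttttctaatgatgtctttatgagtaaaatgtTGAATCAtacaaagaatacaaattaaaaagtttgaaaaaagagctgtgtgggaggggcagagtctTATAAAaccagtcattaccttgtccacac
Plaur: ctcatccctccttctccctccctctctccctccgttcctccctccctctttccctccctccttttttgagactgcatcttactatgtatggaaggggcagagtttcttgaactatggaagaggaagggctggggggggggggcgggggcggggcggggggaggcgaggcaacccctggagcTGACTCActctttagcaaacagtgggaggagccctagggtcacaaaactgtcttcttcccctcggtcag
F3: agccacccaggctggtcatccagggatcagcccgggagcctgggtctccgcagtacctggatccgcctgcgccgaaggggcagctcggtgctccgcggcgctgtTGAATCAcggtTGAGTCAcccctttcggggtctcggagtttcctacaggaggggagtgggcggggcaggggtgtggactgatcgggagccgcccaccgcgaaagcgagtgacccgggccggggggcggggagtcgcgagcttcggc
Counted back from the start site, the AP-1 letters lay at -94 to -88 in Serpinb2 and at -69 to -63 in Plaur. Serpinb2 has 2 RefSeq start sites, and the stretch shown precedes the first. F3 held them at -146 to -140 and again at -135 to -129. Serpinb2 also had TATAAA at -29 to -24, letters found in 12.4% of the stretches on either strand. Counted from its second start site, the same letters lay at -181 to -175 for AP-1 and at -116 to -111 for TATAAA. The windows of Serpine2, Serpinf1 and Tfpi held no AP-1 letters. The Serpine2 window had 6 matches to the GC box GGGCGG, which 32.7% of all stretches contain, and 1 to CAGAC, the core of a SMAD-binding element, which 42.2% contain. CAGAC also occurred 2 times in the Serpinf1 window and 2 times before one of the 2 Tfpi start sites. Plaur and F3 had 3 GC boxes each and no CAGAC. These are matches of letters only, and binding was not measured.

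In resting WT fibroblasts the genes spanned a wide range of levels. Serpinf1, which encodes PEDF, a secreted serpin that blocks vessel growth and inhibits no protease, was the highest at 910 ± 73.1 RPKM (SD, n = 3), rank 26 of all 21556 genes. F3 followed at 532 ± 72.7 RPKM, rank 63. The next genes were Serpine2 at 77.9 ± 11.7, Plaur at 61.2 ± 15.6, Plau at 54.8 ± 15.5 and Thbd at 41.1 ± 6.47 RPKM, and each of these overlapped its neighbour in the order between libraries. Tfpi, at 29.3 ± 3.16 RPKM, was below Thbd in every library and overlapped Plat, at 20.1 ± 6.69 RPKM. Serpinb2 was almost silent at 0.761 ± 0.124 RPKM. After TGF-β2 the order in WT was Serpinf1, F3, Plaur, Serpine2, Tfpi, Plau, Plat, Thbd and Serpinb2. Plau and Plat overlapped between libraries, as did Thbd and Serpinb2, while the other neighbours were separate. Plaur thus moved above Serpine2 and Thbd dropped from rank 1388 to rank 6662 of all genes.

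**Figure D1:**
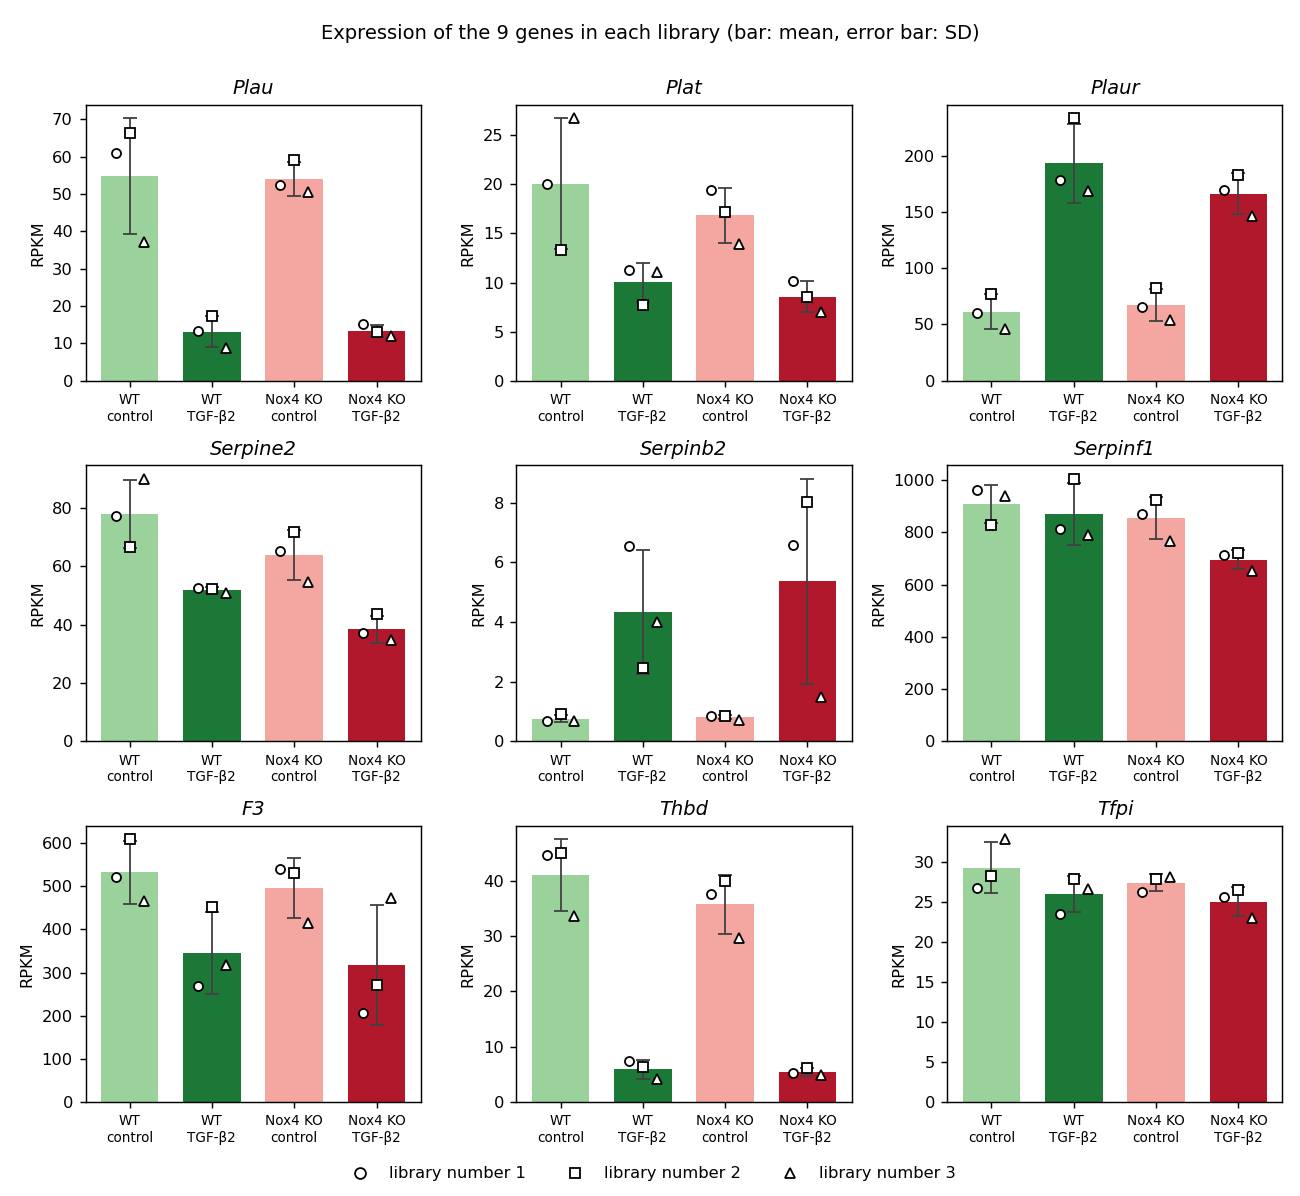
Level of each of the 9 genes in RPKM (vertical axes, each from 0) in WT control, WT TGF-β2, Nox4 KO control and Nox4 KO TGF-β2; bars are means, error bars are SD of 3 libraries and the circle, square and triangle are libraries numbered 1, 2 and 3. Plau and Thbd are low and Plaur is high in all 6 stimulated libraries, while Tfpi libraries overlap between control and TGF-β2 in both genotypes and those of Serpinf1 in WT.

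TGF-β2 lowered both plasminogen activators and thrombomodulin, raised the urokinase receptor and PAI-2, and lowered Serpine2 less strongly, in WT and in Nox4 KO cells. A gene was called where its adjusted p was under 0.05 over all genes tested. In WT, 6 of the 9 genes were called, 2 higher and 4 lower, where 22.6% of the 10743 genes tested were called (10.4% higher and 12.2% lower). At a fold of at least 2 there were 4 such genes, 2 higher and 2 lower, where 7.72% of all genes were called (2.62% and 5.09%), and 7 of the 9 genes had an unadjusted p under 0.05, against 37.7% of all genes. In Nox4 KO the counts over the 9 genes were the same, 2 higher and 4 lower, where 30.0% of the 10809 genes tested were called (15.1% higher and 14.9% lower), and at a fold of at least 2 they were again 2 and 2, against 6.80% of all genes (2.22% and 4.58%). Without control library 1 or 2, 3 of the 9 genes were still called in Nox4 KO, where 15.0% and 16.5% of all genes were called. Without WT TGF-β2 library 2, 6 of the 9 genes were called in WT, with F3 in place of Plat, where 31.6% of all genes were called. Upper-quartile normalization changed the split over all genes in Nox4 KO from 1637 higher and 1606 lower to 1216 and 1969, and the calls among the 9 genes were the same. In the main Nox4 KO fit, an unadjusted p under 0.05 was found for 6 of the 9 genes and for 43.8% of all genes. The median log2 fold change of the 9 genes was -0.54 in WT and -0.57 in Nox4 KO, where the median of all genes tested was -0.0027 and -0.014. In both genotypes, control and TGF-β2 libraries did not overlap for 7 of 9 genes, against 45.2% of all genes in WT and 48.5% in Nox4 KO. All 9 genes passed the filter on low values in these fits, Serpinb2 only through its stimulated libraries.

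**Figure D2:**
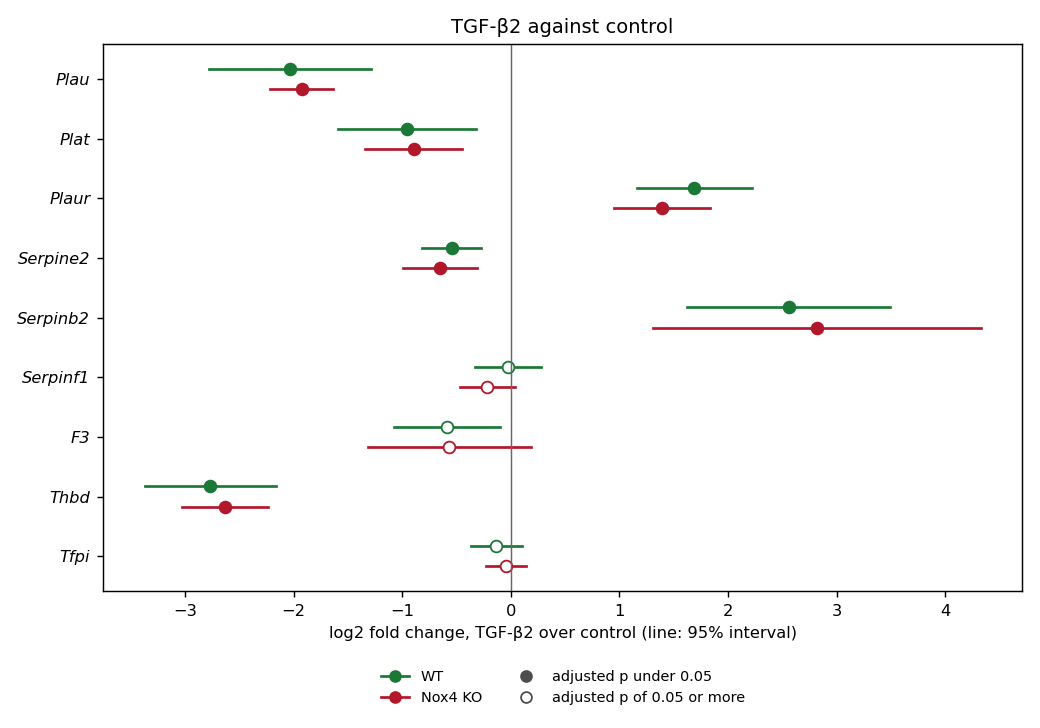
Log2 fold change of TGF-β2 over control (horizontal axis) for each of the 9 genes in WT (green) and Nox4 KO (red), with lines for the 95% interval and filled points for an adjusted p under 0.05. Plau, Plat, Serpine2 and Thbd lie below 0 and Plaur and Serpinb2 above 0 in both genotypes, while F3, Serpinf1 and Tfpi have open points.

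Urokinase mRNA dropped steeply. Plau (ENSMUSG00000021822, chr14:20836660-20843385, plus strand of GRCm38) was at 60.9, 66.3 and 37.1 RPKM in the WT control libraries and at 13.2, 17.3 and 8.87 RPKM after TGF-β2. In Nox4 KO it was at 52.5, 59.0 and 50.4 RPKM in control and at 15.2, 13 and 12.0 RPKM after TGF-β2. Library 3 was the lowest in each group, and no stimulated library of either genotype reached any control library. Plau was 4.08-fold lower with TGF-β2 in WT (log2 fold change -2.03, SE 0.31, adjusted p = 0.00616) and 3.80-fold lower in Nox4 KO (-1.92, SE 0.12, adjusted p = 0.00126).

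The tissue-type activator fell by a smaller factor. Plat (ENSMUSG00000031538, chr8:22757727-22782844, plus strand) was at 20.1, 13.4 and 26.7 RPKM in WT control and at 11.3, 7.69 and 11.1 RPKM in WT TGF-β2. The Nox4 KO libraries gave 19.5, 17.2 and 13.9 RPKM in control and 10.2, 8.51 and 7.03 RPKM after TGF-β2. The groups did not overlap within either genotype, although the WT control libraries themselves differed widely. Plat was 1.94-fold lower in WT (log2 fold change -0.95, SE 0.27, adjusted p = 0.0444) and 1.86-fold lower in Nox4 KO (-0.89, SE 0.18, adjusted p = 0.0173). The WT call was the least secure of the 6, since without WT TGF-β2 library 2 the change was -0.78 with an adjusted p of 0.0802, and 4 other single libraries also ended it when left out. In Nox4 KO, leaving out control library 1 or 2 or TGF-β2 library 2 ended the call, with adjusted p up to 0.0705.

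The urokinase receptor moved in the opposite direction from its ligand. Plaur (ENSMUSG00000046223, chr7:24462484-24475968, plus strand), which anchors urokinase at the cell surface and binds vitronectin, was at 60.0, 77.4 and 46.2 RPKM in WT control and at 178, 233 and 168 RPKM after TGF-β2. In Nox4 KO its control libraries were at 65.4, 82.1 and 53.7 RPKM and its stimulated libraries at 170, 183 and 146 RPKM. Every stimulated library was well above every control library, and library 2 was the highest in each of the 4 groups. The rise was 3.23-fold in WT (log2 fold change 1.69, SE 0.22, adjusted p = 0.00375) and 2.63-fold in Nox4 KO (1.39, SE 0.18, adjusted p = 0.00535). Myeloid cells also express Plaur. The summed myeloid markers overlapped between control and TGF-β2 libraries, although their sum was lower in the TGF-β2 library of each number, and their part in the Plaur levels was not tested.

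Of the protease-inhibiting serpins Serpine2 and Serpinb2, Serpine2 was the more abundant one. Serpine2 (ENSMUSG00000026249, chr1:79794197-79861180, minus strand) encodes protease nexin-1, which inhibits thrombin, urokinase and plasmin at the cell surface. It was at 77.1, 66.5 and 90.0 RPKM in WT control and at 52.7, 52.3 and 50.7 RPKM after TGF-β2. Nox4 KO libraries were at 65.3, 71.8 and 54.7 RPKM in control and at 36.9, 43.5 and 34.7 RPKM after TGF-β2. The stimulated WT libraries were nearly equal to each other, and within each genotype they lay below all controls. Serpine2 was 1.46-fold lower in WT (log2 fold change -0.54, SE 0.11, adjusted p = 0.0166) and 1.57-fold lower in Nox4 KO (-0.65, SE 0.14, adjusted p = 0.0199). Leaving out WT control library 1 or 3 or WT TGF-β2 library 1 ended the WT call, with adjusted p up to 0.0644, as did leaving out Nox4 KO control library 1 or 2 or Nox4 KO TGF-β2 library 1, with adjusted p up to 0.0653.

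Serpinb2 (ENSMUSG00000062345, chr1:107511423-107535478, plus strand) encodes PAI-2, a largely intracellular inhibitor of urokinase and tissue-type activator. Its control level was low in all 6 libraries, at 0.692, 0.905 and 0.687 RPKM in WT and 0.838, 0.862 and 0.722 RPKM in Nox4 KO. After TGF-β2 it reached 6.57, 2.46 and 4.01 RPKM in WT and 6.59, 8.03 and 1.48 RPKM in Nox4 KO. Each stimulated library was above each control library, but the stimulated libraries themselves spread widely, and Nox4 KO TGF-β2 library 3 was the lowest of them. The rise was 5.89-fold in WT (log2 fold change 2.56, SE 0.39, adjusted p = 0.00607) and 7.06-fold in Nox4 KO (2.82, SE 0.62, adjusted p = 0.0208). In Nox4 KO, leaving out any single library other than TGF-β2 library 3 ended the call, with adjusted p from 0.0576 to 0.0712, while the log2 fold change stayed between 2.4 and 2.89 in those fits. Serpinb2 overlaps Serpinb10 on the same strand in the annotation, so its low control counts are uncertain to that extent.

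Serpinf1 (ENSMUSG00000000753, chr11:75409769-75422701, minus strand) differed little in WT, at 963, 826 and 940 RPKM in control and 813, 1005 and 789 RPKM after TGF-β2. In Nox4 KO it was at 871, 925 and 767 RPKM in control and 712, 719 and 652 RPKM after TGF-β2. The WT groups overlapped, whereas all stimulated Nox4 KO libraries were below all Nox4 KO controls. The log2 fold change was -0.03 in WT (95% interval -0.33 to 0.27, adjusted p = 0.889) and -0.21 in Nox4 KO (-0.46 to 0.04, adjusted p = 0.162). With the library number as a block, since same-numbered Nox4 KO libraries deviated together, the change of -0.21 was called (adjusted p = 0.0273). In that fit, Nox4 KO had 7 of the 9 genes called and 2729 genes higher and 3113 lower over all genes tested (54.0%), where the unblocked fit had 1637 and 1606.

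Tissue factor was the second most abundant of the 9 genes in all 4 groups. F3 (ENSMUSG00000028128, chr3:121723537-121735048, plus strand) was at 522, 609 and 465 RPKM in WT control and at 269, 452 and 317 RPKM after TGF-β2. In Nox4 KO it was at 541, 531 and 415 RPKM in control and at 207, 270 and 474 RPKM after TGF-β2. The WT groups did not overlap, by a narrow margin, whereas Nox4 KO TGF-β2 library 3 lay above one of its controls. The log2 fold change was -0.59 in WT (95% interval -1.08 to -0.10, adjusted p = 0.083) and -0.57 in Nox4 KO (-1.32 to 0.18, adjusted p = 0.208), so F3 was not called in either genotype by edgeR. DESeq2 called it in WT (adjusted p = 0.02). Single libraries also changed the call. Without WT TGF-β2 library 2 the WT change was -0.81 and called (adjusted p = 0.0156), and without Nox4 KO TGF-β2 library 3 the Nox4 KO change was -0.97 and called (adjusted p = 0.0183). Other single libraries left out gave changes as small as -0.46 in WT and -0.34 in Nox4 KO. Adjusted p then reached 0.223 in WT and 0.434 in Nox4 KO (edgeR).

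F3 and Serpinb2 had opposite orders among the stimulated WT libraries. In WT, library 1 had the lowest F3 and the highest Serpinb2, and library 2 had the highest F3 and the lowest Serpinb2. In Nox4 KO, library 3 combined the highest F3 with the lowest Serpinb2, but both genes were higher in library 2 than in library 1. Compared with the control library of the same number on the log2(CPM + 0.5) scale, F3 differed by -1.39 and -0.97 in Nox4 KO numbers 1 and 2 but by 0.19 in number 3, and Serpinb2 differed by 2.66, 2.91 and 0.83. The deviations of the 2 genes from their group means had a Pearson r of -0.80 over 12 libraries. It describes libraries in which both genes were counted together. This r was the most negative among all pairs of the genes followed here, so it is a selected value. How far it rests on Nox4 KO TGF-β2 library 3 was not tested. Nox4 KO TGF-β2 library 3 also had the lowest myeloid marker sum of its group, 16.9 against 85.3 and 30.5 RPKM, and the part of that in these values was not tested.

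**Figure D3:**
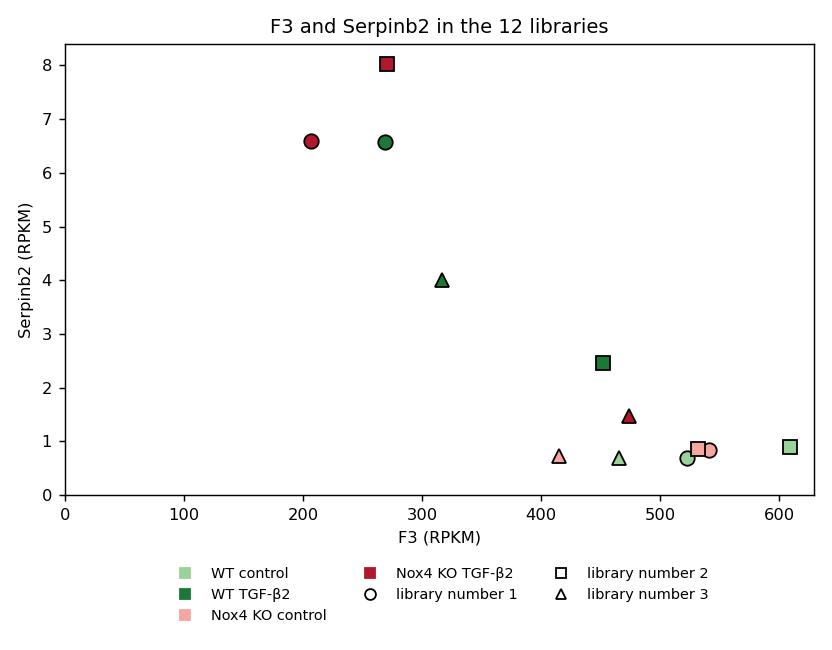
F3 (horizontal axis, RPKM) against Serpinb2 (vertical axis, RPKM) in the 12 libraries, coloured by group, with the library number as the symbol. The 6 control libraries lie together at the lower right with Serpinb2 at 0.687 to 0.905 RPKM, and the stimulated libraries spread above them, with Nox4 KO library 2 the highest in Serpinb2, Nox4 KO library 1 the lowest in F3 and Nox4 KO library 3 next to the controls.

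Thrombomodulin had the strongest decrease of the 9 genes. Thbd (ENSMUSG00000074743, chr2:148404466-148408188, minus strand), the thrombin receptor that switches thrombin from clotting to protein C activation, was at 44.7, 45.0 and 33.6 RPKM in WT control and at 7.32, 6.28 and 4.06 RPKM after TGF-β2. In Nox4 KO it was at 37.6, 39.9 and 29.7 RPKM in control and at 5.29, 6.20 and 4.83 RPKM after TGF-β2. Every control library of either genotype was far above every stimulated one. Thbd was 6.80-fold lower in WT (log2 fold change -2.77, SE 0.25, adjusted p = 0.00113) and 6.20-fold lower in Nox4 KO (-2.63, SE 0.16, adjusted p = 0.00126). Endothelial cells are the best known source of thrombomodulin, and of their 9 markers Kdr was the highest at 1.48 to 4.62 RPKM, with Egfl7 at no more than 2.30, Tek at no more than 1.04, and Pecam1 and Cdh5 at no more than 0.133 RPKM. The sum of these markers was lower in the TGF-β2 library of each number in both genotypes, and its part in the Thbd values was not tested.

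Tfpi differed little between groups. Tfpi (ENSMUSG00000027082, chr2:84432855-84476775, minus strand), which inhibits activated factor X and the tissue factor complex, was at 26.7, 28.2 and 32.8 RPKM in WT control and at 23.4, 27.9 and 26.6 RPKM after TGF-β2. In Nox4 KO it was at 26.2, 27.8 and 28.1 RPKM in control and at 25.6, 26.5 and 22.9 RPKM after TGF-β2. The groups overlapped in both genotypes. The log2 fold change was -0.13 in WT (95% interval -0.37 to 0.10, adjusted p = 0.372) and -0.04 in Nox4 KO (-0.23 to 0.14, adjusted p = 0.693), so these intervals leave room for a decrease of 0.37 at most.

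Sums and ratios of levels, chosen after the values were seen, describe the balance of the mRNAs. Plau and Plat together were at 74.8 ± 9.52 RPKM in WT control and 23.2 ± 2.76 RPKM in WT TGF-β2 (SD, n = 3), and at 70.8 ± 6.02 and 22.0 ± 3.21 RPKM in Nox4 KO. Plaur over Plau was 1.13 ± 0.134 in WT control and 15.3 ± 3.19 in WT TGF-β2, and 1.23 ± 0.162 and 12.5 ± 1.46 in Nox4 KO. Receptor and ligand mRNA were at similar levels in control cells. Thbd over F3 was 0.0772 ± 0.00724 in WT control and 0.0180 ± 0.00799 in WT TGF-β2, and 0.0721 ± 0.00284 and 0.0196 ± 0.00824 in Nox4 KO. Tfpi over F3 went the other way in the means, with overlapping libraries. It was 0.0560 ± 0.0128 in WT control and 0.0776 ± 0.0138 in WT TGF-β2, and 0.0561 ± 0.0102 and 0.0901 ± 0.0383 in Nox4 KO. Serpine2 plus Serpinb2 fell from 78.6 ± 11.6 to 56.2 ± 2.60 RPKM in WT and from 64.7 ± 8.70 to 43.8 ± 7.65 RPKM in Nox4 KO. These are ratios of mRNA levels per length and say nothing of protease activity.

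The other genes of both systems were read from a list of 52 genes, 21 of fibrinolysis and 31 of coagulation, of which 18 passed the filter in each comparison. In WT, 7 of the 18 were called, 5 higher and 2 lower, and in Nox4 KO 7 were called, 4 higher and 3 lower, beside the 22.6% and 30.0% of all genes given above. Leaving out WT control library 1 or WT TGF-β2 library 1 left 3 calls in WT, where 12.3% and 11.5% of all genes were called, and leaving out Nox4 KO TGF-β2 library 2 left 4 in Nox4 KO, where 10.5% were. With the library number as a block, 11 of the 18 were called in Nox4 KO, where 54.0% of all genes were called. The median log2 fold change of the 18 was 0.22 in WT and 0.10 in Nox4 KO. Plg, which encodes plasminogen itself, had no count in any of the 12 libraries, and neither had the fibrinogen genes Fga, Fgb and Fgg, where a count of 0 allows up to 3 counts per library. F7, the partner of tissue factor, had at most 5 counts in a library. The mRNAs of plasminogen and fibrinogen, on which both systems act, were thus not detected in these cultures.

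Tfpi2, a Kunitz-type inhibitor of plasmin that is related to Tfpi, rose where Tfpi itself was not called. Its level was 5.61, 4.74 and 4.53 RPKM in WT control and 34.8, 29.0 and 29.0 RPKM in WT TGF-β2, a 6.41-fold rise (log2 fold change 2.68, adjusted p = 0.00038). The Nox4 KO libraries were at 3.37, 4.31 and 3.83 RPKM in control and 38.1, 31.9 and 15.8 RPKM after TGF-β2, a 7.92-fold rise (2.99, adjusted p = 0.00423). Nox4 KO library 3 was again the lowest stimulated library, as for Serpinb2. F2rl1, the protease-activated receptor PAR2 that the tissue factor complex can cleave, rose 2.65-fold in WT (log2 fold change 1.41, adjusted p = 0.00457) and in Nox4 KO (1.4, adjusted p = 0.00886). Anxa2, a plasminogen-binding annexin at 816 to 921 RPKM in the group means, was not called in either genotype, and neither was its partner S100a10 (0.08 in WT, adjusted p = 0.852, and -0.17 in Nox4 KO, adjusted p = 0.66). Anxa5, which shields phosphatidylserine, rose in WT (0.72, adjusted p = 0.0124) and had a change of 0.59 in Nox4 KO (adjusted p = 0.118).

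The remaining calls were smaller than 2-fold. Pros1, which encodes protein S, the cofactor of activated protein C, was lower in WT (log2 fold change -0.70, adjusted p = 0.0137) and in Nox4 KO (-0.60, adjusted p = 0.0169). Ano6, the scramblase that exposes phosphatidylserine, was lower as well (-0.69 in WT, adjusted p = 0.0288, and -0.39 in Nox4 KO, adjusted p = 0.00877). Lman1, a cargo receptor for factors V and VIII, was higher in both (0.46, adjusted p = 0.0108, and 0.56, adjusted p = 0.0042). Vkorc1 of the vitamin K cycle was called higher in WT (0.51, adjusted p = 0.0328) and had a change of 0.12 in Nox4 KO (adjusted p = 0.168). Its partner enzyme Ggcx was called higher in Nox4 KO (0.28, adjusted p = 0.017), with 0.22 in WT (adjusted p = 0.211). The plasminogen receptor Plgrkt was called lower in Nox4 KO (-0.35, adjusted p = 0.0199), with -0.25 in WT (adjusted p = 0.234). The difference in response between genotypes was not called for Vkorc1, Ggcx or Plgrkt (adjusted p = 0.854, 0.923 and 0.929, interaction term). These 6 genes were named after their values were seen.

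**Figure D4:**
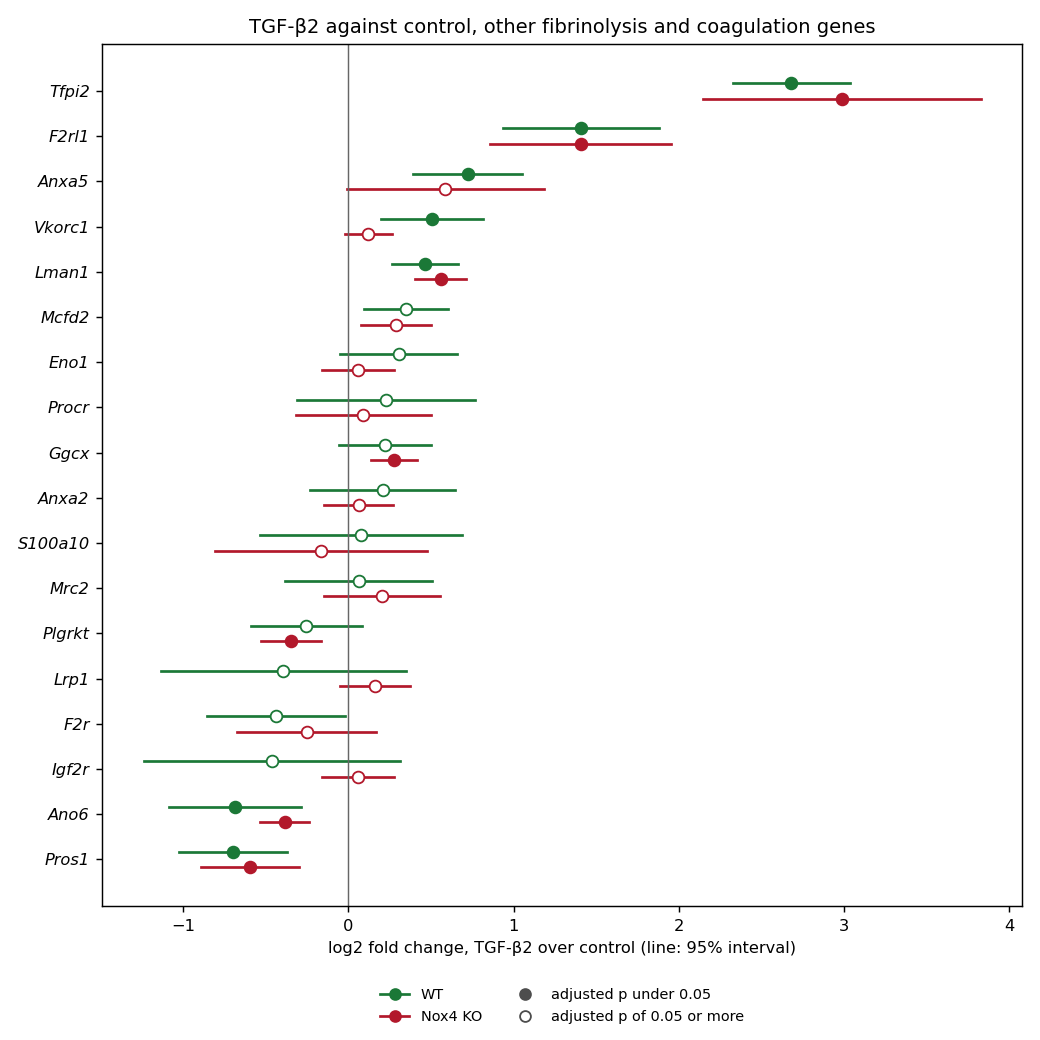
Log2 fold change of TGF-β2 over control (horizontal axis) for the 18 other fibrinolysis and coagulation genes that passed the filter, in WT (green) and Nox4 KO (red), with lines for the 95% interval and filled points for an adjusted p under 0.05. Tfpi2 and F2rl1 stand out above 1 in both genotypes, and Pros1 and Ano6 are the lowest.

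Nox4 deficiency was compared in control cells and after TGF-β2, and these comparisons share their libraries with the TGF-β2 comparisons above. None of the 9 genes was called in either, where 0% of 10767 and of 10439 genes tested were called by edgeR. At an unadjusted p under 0.05 there were 597 genes (5.54%) in control and 337 (3.23%) after TGF-β2, and DESeq2 called 9 genes higher and 19 lower in control and 8 and 8 after TGF-β2, none of the 9 among them. Serpinb2 did not pass the filter in control, at 0.761 ± 0.124 RPKM in WT and 0.807 ± 0.0749 RPKM in Nox4 KO. For the other 8 genes the control difference on the log2 scale lay between -0.32 (Serpine2) and 0.09 (Plaur), the adjusted p was 0.828 or more, and the groups overlapped for all 8, where 13.6% of all genes did not overlap.

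After TGF-β2, Serpine2 and Serpinf1 had the smallest unadjusted p-values of the 9 genes. Serpine2 was at 51.9 ± 1.01 RPKM in WT and 38.4 ± 4.55 RPKM in Nox4 KO (SD, n = 3), with each Nox4 KO library below each WT library, a log2 difference of -0.41 with a 95% interval of -0.68 to -0.15 and an adjusted p of 0.838. Serpinf1 was at 869 ± 119 and 694 ± 36.6 RPKM, also without overlap, with a difference of -0.30 (-0.57 to -0.03, adjusted p = 0.838). Groups without overlap were found for 10.1% of all genes in this comparison and for 2 of the 9 genes. The remaining 7 genes overlapped, with differences between -0.21 (Plat) and 0.31 (Serpinb2). The intervals were narrow for Tfpi (-0.27 to 0.20) and wide for F3 (-0.86 to 0.66) and Serpinb2 (-1.20 to 1.82). They leave room for differences within those bounds, and the smallest detectable difference was not computed. Without Nox4 KO TGF-β2 library 2 the Serpinb2 difference was -0.098.

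**Figure D5:**
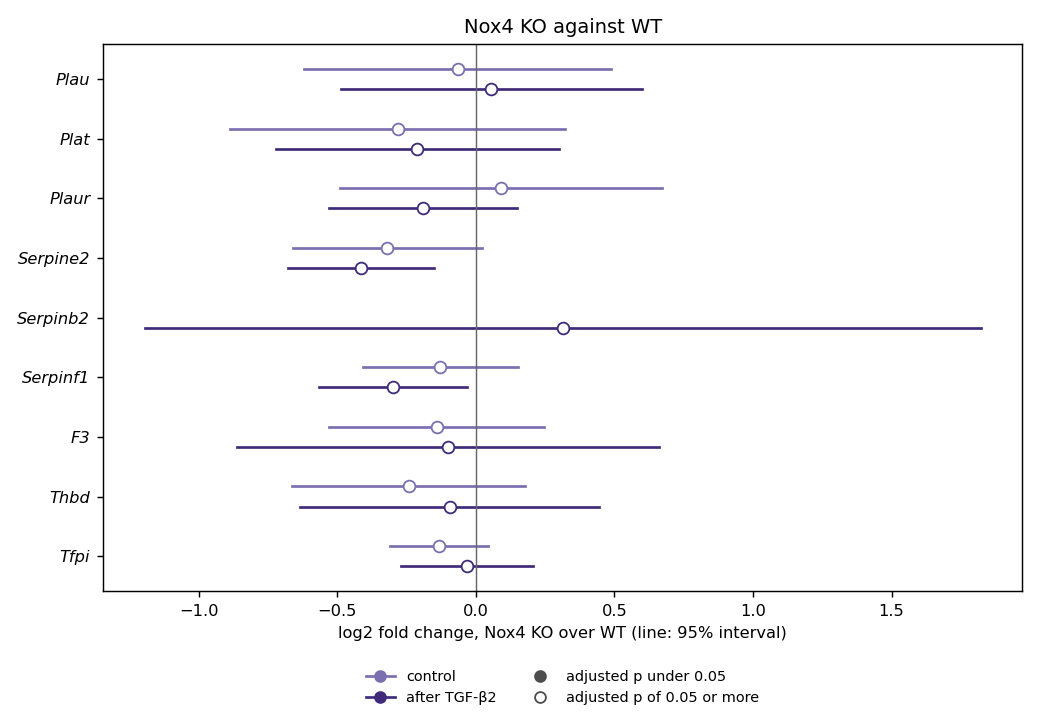
Log2 fold change of Nox4 KO over WT (horizontal axis) for the 9 genes in control (light) and after TGF-β2 (dark), with lines for the 95% interval. All points are open, since no adjusted p was under 0.05. The Serpine2 and Serpinf1 intervals after TGF-β2 lie below 0, and Serpinb2 has no control point because it did not pass the filter.

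The response to TGF-β2 itself was compared between genotypes with an interaction term over all 12 libraries. None of the 9 genes and 0% of the 10890 genes tested were called by edgeR. There were 292 genes (2.68%) at an unadjusted p under 0.05, and DESeq2 called 6 genes lower. The differences in response, Nox4 KO minus WT on the log2 scale, ran from -0.28 (Plaur) to 0.27 (Serpinb2, -0.15 without Nox4 KO TGF-β2 library 2), with adjusted p from 0.854 to 0.987. For Plau the difference was 0.12 with a 95% interval of -0.65 to 0.89, for Thbd it was 0.15 with an interval of -0.53 to 0.82, and for Serpine2 it was -0.09 with an interval of -0.51 to 0.32.

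Genes with the most similar pattern over the 12 libraries were found by Pearson r of log2(CPM + 0.5) among 10889 other genes, as a description of libraries that mostly separate control from TGF-β2. Plau was closest to Trp53inp2 (r = 0.985), then to Thbd (0.981) and Pdlim2 (0.977). Thbd was closest to Sema6a (0.985), Fam124a and Pde8b. Plaur was closest to Larp1b (0.992), Cdv3 and Cxcr6, Serpinb2 to Zfpm1 (0.971), Slc20a1 and Enpp1, and Serpine2 to Unc93b1 (0.976), Cygb and Ccdc85c. Plat was closest to Il33 (0.972), Slc7a2 and the coagulation gene Pros1 (0.964). F3 was closest to Plpp1 (0.931), Tdrp and Ltbr, Serpinf1 to Mkrn1 (0.956), Mrps18a and Glmp, and Tfpi to Ctns (0.958), Hsd17b11 and Pgd. Once the group means were removed, Plau still moved with Thbd (r = 0.75) and with Plaur (r = 0.80) between libraries, although Plau and Plaur changed in opposite directions with TGF-β2.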

How the data were processed

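RNA-seq gene counts of 12 libraries were analysed. Per the labels and the study's methods, the authors sequenced single-end reads (TruSeq RNA kit, basecalls with CASAVA 1.8.2), mapped them to GRCm38 with STAR 2.4, discarded reads with several positions, and counted reads over merged exons (the notes name featureCounts 1.4.6). They deposited raw counts per gene. Reads shared with near-identical copies are therefore lost, and strand use in counting is not given in the sources used here. From the counts, RPKM was computed on the total counts and on exon lengths of protein-coding transcripts for 21099 genes and of all transcripts for 457.

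Genes whose mean reached 1 RPKM in either group compared were tested with edgeR 4.0.16 (TMM, quasi-likelihood F test, R 4.3.3), in separate fits of 6 libraries per comparison and one fit of 12 for the interaction, with Benjamini-Hochberg adjustment over all genes tested and a threshold of 0.05. DESeq2 1.42.0 was an alternative. The scripts were tested on simulated data. An exact permutation test of 3 against 3 libraries cannot go below 0.1 and was not used for calls. P-values set the difference between groups against the spread between these libraries, and the main fits treated same-numbered libraries as independent.

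The 9 genes, the list of 52 and the marker lists were chosen with earlier results of these data known. Named from the list were genes called at a fold of at least 2 and the 3 with the highest mean RPKM. One gene of the original list is not reported here. As most similar, the 3 genes with the highest r were named.

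Same-numbered control and TGF-β2 libraries deviated together in Nox4 KO (r = 0.763, 0.688 and 0.741 over 10890 genes), a pairing that the labels do not give. In WT r was lower (0.0619, 0.415 and 0.525), and between genotypes it was at most 0.314. The main fits used no pairing in either genotype, and the replicate block was run as an alternative only. The alternatives were another test, 2 other normalizations, 2 other filters, a fold threshold, a replicate block, one fit of all libraries, RPKM on TMM library sizes, and each library left out. Added after seeing the data were library sizes over all genes, leaving out both Nox4 KO libraries numbered 3, and the sums and ratios.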

Additional observations from a re-analysis of the deposited data

How the results depend on the processing

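The directions and calls of Plau, Plaur and Thbd under TGF-β2 were the same in both genotypes under every alternative run, single libraries left out included, as were those of Tfpi2 and F2rl1. The main fits called 6 of the 9 genes in each genotype, where 22.6% of all genes were called in WT and 30.0% in Nox4 KO. In WT the alternatives called 4 to 7, where 7.72% to 31.6% of all genes were called. With one library left out it was 4 to 6, where 11.5% to 31.6% were. In Nox4 KO the alternatives called 4 to 8, where 6.80% to 54.0% of all genes were called. With one library left out it was 3 to 7, where 10.5% to 32.4% were. The 3 came without control library 1 or 2, where Plat, Serpine2 and Serpinb2 lost their calls. No genotype or interaction setting called any of the 9.

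F3 was called in WT by DESeq2 (adjusted p = 0.02) and with the replicate block (0.0223), and in Nox4 KO without both libraries numbered 3 (-1.09, adjusted p = 0.00816), which also called Serpinf1 (0.0438). Plat in WT reached 0.0503 with library sizes over all genes. The block gave 7 calls in each genotype, where 28.7% of all genes were called in WT and 54.0% in Nox4 KO. In WT its numbers are no design pairing. The block changed no other call among the 9 genes. The cause of these changes was not tested.

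Signs reversed only for changes that were not called. Serpinf1 in WT was 0.012 without the filter and 0.0033 with filterByExpr, Tfpi in Nox4 KO was 0.031 without both libraries numbered 3, and the F3 interaction was -0.014 with upper-quartile normalization and -0.023 with the replicate block. With one library left out, Serpinf1 in WT ranged from -0.13 to 0.037 and Tfpi in Nox4 KO from -0.092 to 0.020. For Nox4 KO against WT in control, Plau ranged from -0.30 to 0.10 and Plaur from -0.092 to 0.31. After TGF-β2, Plau ranged from -0.15 to 0.27, F3 from -0.50 to 0.13, Serpinb2 from -0.098 to 0.77, Tfpi from -0.077 to 0.032 and Thbd from -0.30 to 0.13. In the interaction, Plau ranged from -0.091 to 0.33, Plat from -0.18 to 0.29, F3 from -0.36 to 0.27, Serpine2 from -0.22 to 0.010, Serpinb2 from -0.15 to 0.72 and Thbd from -0.057 to 0.36.

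Over all genes in WT, 1117 were called higher and 1308 lower, and 520 and 712 without TGF-β2 library 1, the fewest with one library left out, against 1643 and 1756 without TGF-β2 library 2, the most. Nox4 KO had 1637 and 1606, and 572 and 562 without TGF-β2 library 2. Upper-quartile normalization shifted the split in Nox4 KO to 1216 higher and 1969 lower. The list of 52 genes had 7 calls in each genotype, where 22.6% of all genes were called in WT and 30.0% in Nox4 KO. At a fold of at least 2 the list had 2 calls in each, where 7.72% and 6.80% of all genes were called.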
